A study of Homo sapiens with 52 samples.

Results

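The data follow the Hippo pathway in cultured cells of fusion-positive rhabdomyosarcoma (FP-RMS), a childhood tumour with skeletal muscle features, after exposure to small molecules, through the RNA levels of 10 genes out of 27043 listed. The genes were chosen by name: the YAP/TEAD target genes CTGF, CYR61 and ANKRD1, the pathway regulators AMOTL1, AMOTL2 and LATS2, the DNA-binding factors TEAD1 and TEAD4, and the co-activators YAP1 and WWTR1. The choice started from measured values, namely the higher CTGF level under the histone deacetylase (HDAC) inhibitors LAQ824, Merck60 and N1302. Those 3 comparisons are therefore given as descriptions without a test, and the question put to the other compounds was whether further YAP/TEAD targets moved with CTGF. All 10 genes were found in all 52 samples and all 10 passed the filter on low values (at least 1 TPM, a length-corrected transcript abundance, in at least 2 samples), as did 16359 of all genes.

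The Hippo pathway is a kinase cascade that restrains tissue growth. When it is on, the LATS kinases phosphorylate YAP1 and its paralogue TAZ, the product of WWTR1, which keeps both out of the nucleus. When it is off, YAP1 and TAZ bind TEAD proteins on DNA and raise target genes such as CTGF and CYR61, which code for secreted matricellular proteins, and ANKRD1, which codes for a nuclear ankyrin-repeat protein. Angiomotin-like proteins such as AMOTL1 and AMOTL2 bind YAP1 and hold it in the cytoplasm, and AMOTL2 and LATS2 are themselves known YAP/TEAD targets, so the pathway carries its own negative feedback.

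TEAD proteins recognise the letters GGAATG, read as CATTCC on the opposite strand. RefSeq promoter windows (GRCh38.p14), running from 250 bases before a transcription start to 50 after it, were matched for 7 of the 10 genes (9 windows, since AMOTL2 and WWTR1 had several starts) and searched on both strands. The motif was in windows of 5 genes, against 14% of all 35116 windows of the same length. CTGF held 3 matches, at 169, 104 and 95 bases upstream of its start, a number reached by 0.128% of all windows. ANKRD1 held 2, at 220 and 128 bases upstream, and 1.37% of all windows held at least that many. YAP1 held 1 match at 162 bases upstream, AMOTL2 held 1 on the opposite strand at 69 bases upstream of one of its starts, and LATS2 held 1 lying 10 bases after its start. AMOTL1 and WWTR1 had none in these windows, and CYR61, TEAD1 and TEAD4 were not matched. A match is a run of letters and not evidence of binding. The stretches around the matches of CTGF and ANKRD1, the targets that went opposite ways under Bromosporin and LAQ824, and of YAP1 are shown 5′ to 3′ on the strand of the gene, with the motif in capitals.
CTGF (chr6:131951453-131951549, minus strand): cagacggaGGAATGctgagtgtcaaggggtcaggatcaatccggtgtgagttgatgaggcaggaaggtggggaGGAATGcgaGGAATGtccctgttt
ANKRD1 (chr10:90921202-90921315, minus strand): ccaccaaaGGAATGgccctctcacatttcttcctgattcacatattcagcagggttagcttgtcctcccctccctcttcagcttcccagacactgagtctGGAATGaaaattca
YAP1 (chr11:102110275-102110304, plus strand): ggagtgtgcaGGAATGtagcaacttgcagc

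The 44 screen samples came from FP-RMS cells that their titles call RH41 and their cell-line label RH4. Each of 20 compounds was given for 6 h at a high dose (10 µM, or 5 µM for Cpd50, GSKJ4 and LAQ824) and at a dose 10 times lower, with 1 sample per dose, and the controls were 2 libraries each at 0.2% and 0.1% DMSO, the solvent. By their labels 5 compounds were directed at HDACs (LAQ824, HDAC; Merck60, HDAC1/2; MC1568, HDAC4/5; WT161, HDAC6; OJI-1, HDAC8), 2 at bromodomains (Bromosporin and SGC-CBP30), 11 at histone methylation, and 2 elsewhere (PFI-3, SMARCA4; Trametinib, MEK1/2). Samples titled RH4 were N1302 at 1 µM with its DMSO sample at 6 h, and entinostat at 1 µM, an inhibitor of HDAC1/2/3, with DMSO at 1, 6 and 24 h, 1 sample each. All are established tumour lines in culture, and nothing in the labels says that samples came from separate cultures. P-values therefore measure the spread between these samples, part of which may be technical. For a compound against DMSO that spread is the one between the 2 doses of a compound, or the 2 DMSO concentrations, pooled over all compounds. It includes any effect of dose, leaves out differences between flow cells, and is not a spread between replicates.

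Library depth, worked out from the values, ran from 5616180 to 41415071 reads, and the lowest read count of any of the 10 genes in any sample was 16. All 7 genes listed as FP-RMS markers were present in the 8 control samples. MYOD1 (249 to 648 TPM), MYOG (391 to 633 TPM), DES and FGFR4 were high, while PAX3 (12.4 to 43.9 TPM), TFAP2B (10.8 to 51.2 TPM) and ALK (7.37 to 38.2 TPM) were lower. Of 9 fibroblast markers, THY1 did not exceed 0.0407 TPM and LUM did not exceed 0.475 TPM in the controls, while COL3A1 stood at 1326 TPM or more. The flow cell with 14 of the compounds held no DMSO library, nor did the one with GSKLSD1 and UNC-1215. Calls are therefore also given against a reference on the same flow cell, which for these compounds is the mean of the other compounds there. That mean takes out any change these compounds share. The 2 MC1568 libraries stood apart: between 14529 and 14997 genes reached 1 TPM there, against 13443 to 13482 in the 4 DMSO libraries, and the median change over all genes was 0.26 on the log2 scale.

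In the screen's DMSO samples (mean TPM ± SD over the 2 concentrations) CYR61 was the highest of the genes at 174 ± 23.1 TPM. TEAD1 followed at 78.4 ± 0.802 TPM, YAP1 at 78.0 ± 1.79 TPM and AMOTL1 at 74.4 ± 1.62 TPM. Below them stood TEAD4 at 56.4 ± 3.00 TPM, AMOTL2 at 46.9 ± 0.925 TPM, WWTR1 at 38.7 ± 1.21 TPM and LATS2 at 37.6 ± 0.0958 TPM. CTGF, at 19.8 ± 1.70 TPM, and ANKRD1, at 10.7 ± 1.39 TPM, were the lowest. In this order TEAD1 and YAP1, and WWTR1 and LATS2, did not differ beyond their spread. The controls at 0.2% and 0.1% DMSO differed most for CYR61: 158 and 158 TPM in the 2 libraries at 0.2%, and 190 and 191 TPM in the 2 at 0.1%. None of the 10 genes passed the limma test between the concentrations (0% of all genes did, and 1548 had an unadjusted p under 0.05); for CYR61 the adjusted p was 0.467.

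**Figure D1:**
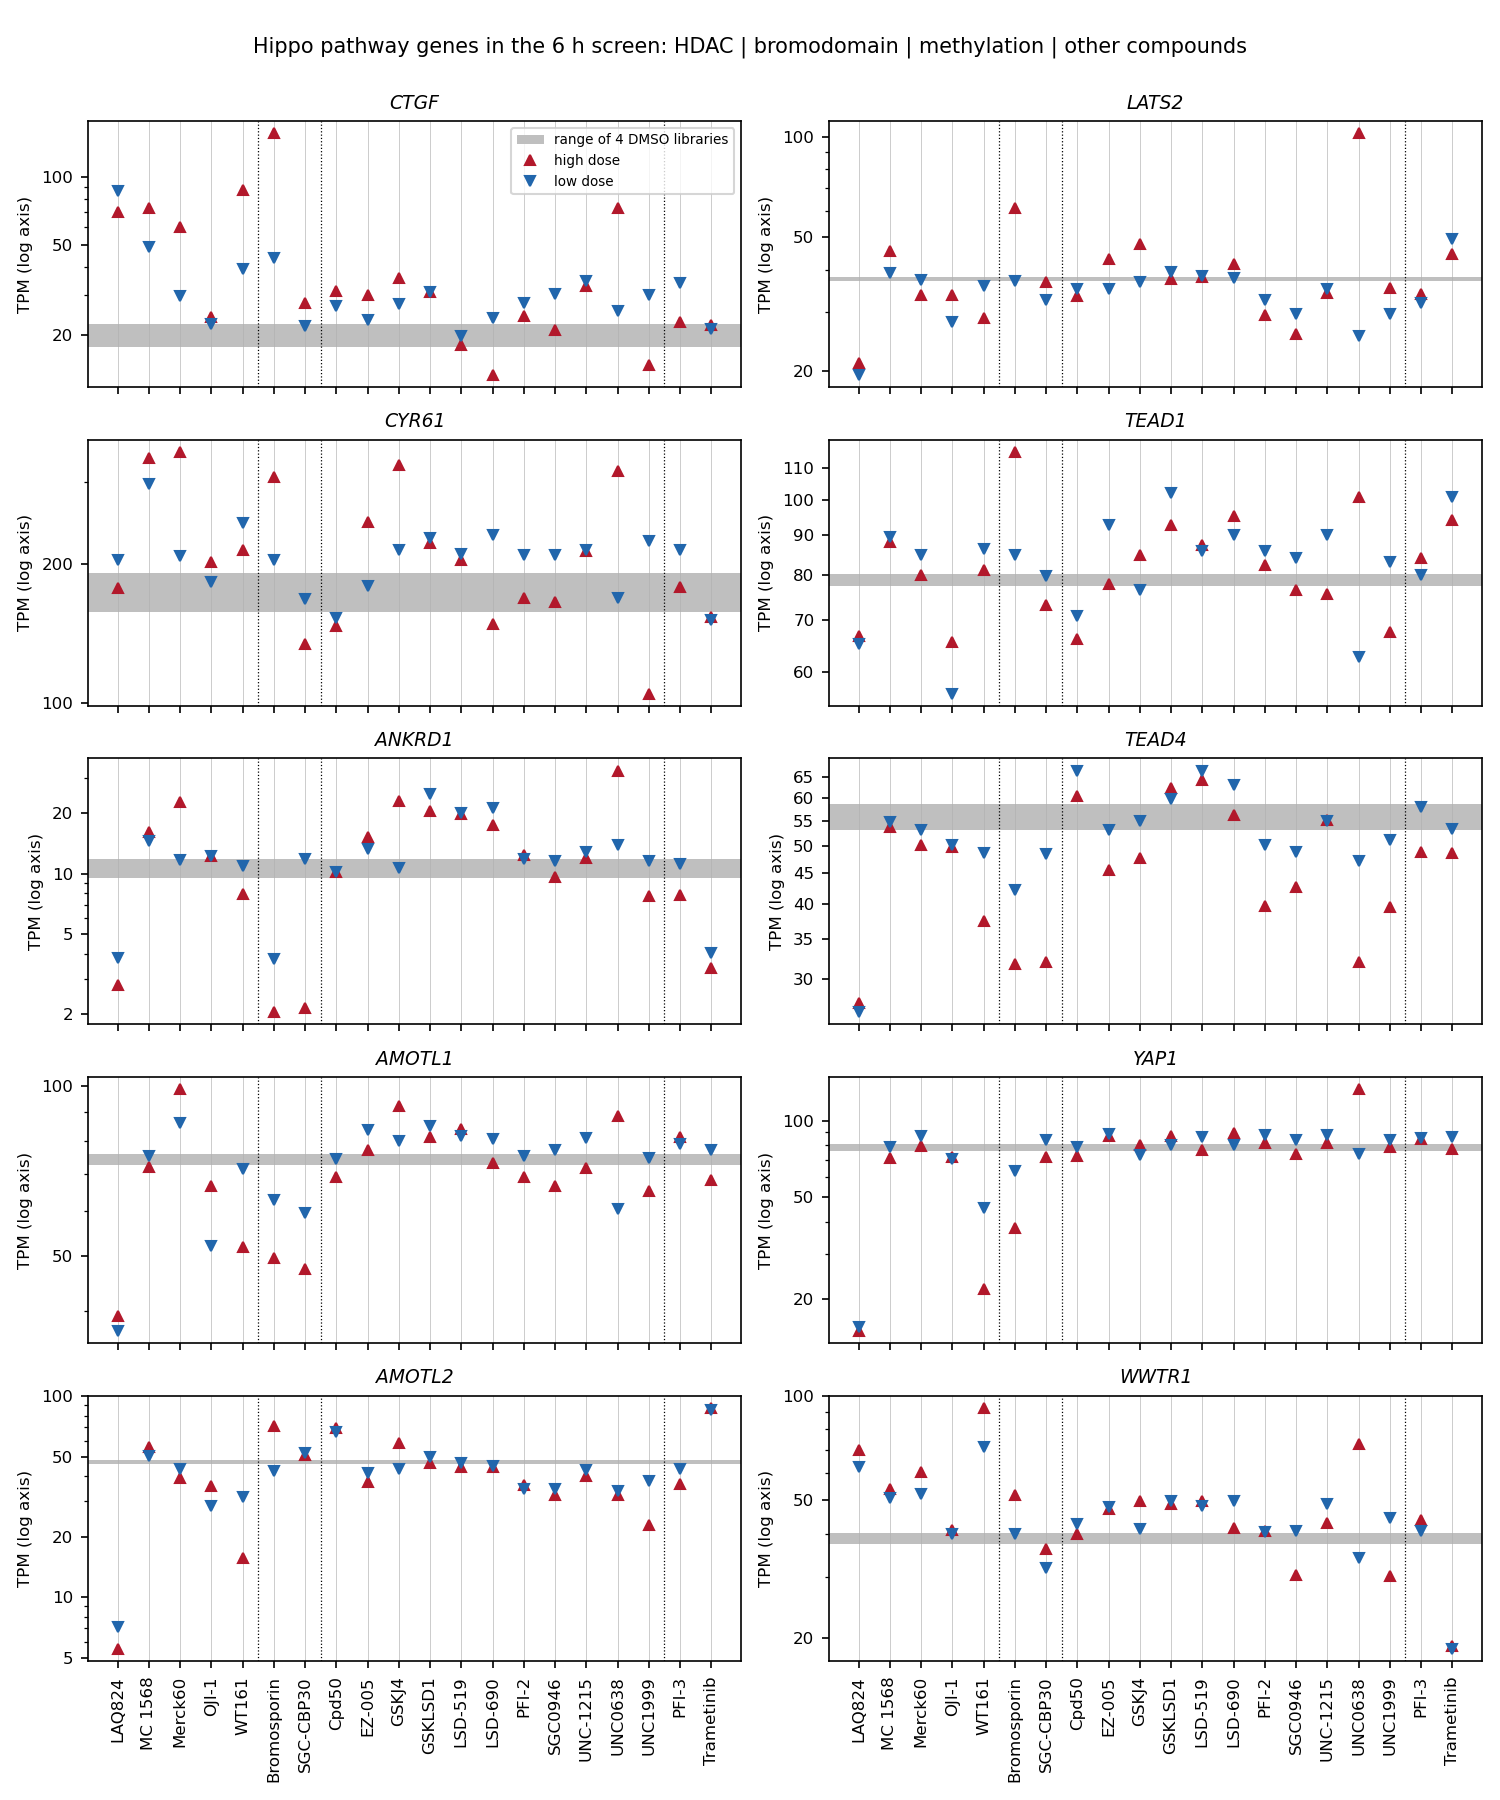
TPM (log axis) of each of the 10 Hippo pathway genes in the 40 treated screen samples, 1 panel per gene, with compounds on the horizontal axis grouped by labelled target. Red upward triangles are high-dose samples, blue downward triangles low-dose samples, and the grey band spans the 4 DMSO libraries; CTGF lies above the band in 31 of 40 samples, and YAP1 falls to about 15 TPM under LAQ824.

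Over the 40 treated screen samples CTGF ran from 13.4 TPM (LSD-690, high dose) through a median of 30.0 TPM to 156 TPM (Bromosporin, high dose). It exceeded all 4 DMSO libraries (17.8 to 22.4 TPM) in 31 samples and fell below all of them in 2. CYR61 ran from 105 to 349 TPM with a median of 208 TPM, and ANKRD1 from 2.05 to 32.6 TPM with a median of 11.8 TPM. The targets thus moved over different ranges: ANKRD1 exceeded its DMSO libraries in 19 samples and lay below them in 10, and CYR61 exceeded its own in 25 and lay below them in 7. As a ratio of highest to lowest level, AMOTL2 had the widest range among the regulators, from 5.49 TPM (LAQ824, high dose) to 87.5 TPM (Trametinib, high dose), followed by YAP1, from 15.0 to 133 TPM. TEAD1, from 56.3 to 115 TPM, and TEAD4, from 26.4 to 66.7 TPM, had the smallest ratios.

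For the 18 compounds that played no part in choosing the genes, each compound's 2 doses were set against the 2 DMSO concentrations with limma on log2(TPM + 1), so fold changes are on that scale and n = 2 on each side. A gene was called when its p, adjusted over all genes, was below 0.05 and its change at least 1 on the log2 scale. Of 180 gene and compound pairs, 4 were called higher (2.22%) and 4 lower (2.22%), against 1.19% and 1.04% of all gene and compound pairs tested. Of the calls higher, 3 were CTGF, the gene on which the choice rested, and 1 was WWTR1. The screen comparisons behind the choice used the same DMSO libraries. The share called higher is therefore not independent of the choice. A further 4 passed on p alone. The 8 calls came from Bromosporin, MC1568, WT161 and Trametinib. In the other 13 compounds apart from UNC0638, at most 2.01% of all genes were called higher (Cpd50) and at most 1.19% lower (SGC-CBP30).

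CTGF, the target gene on which the choice rested, was called higher under 3 of the 18 compounds. Under Bromosporin its level was 156 TPM at the high and 43.7 TPM at the low dose, a change of 2.02 ± 0.472 (log2, SE; limma adjusted p = 0.00215), and 3.96% of all genes were called higher there. Under MC1568, where 6.84% of genes were called higher and 0.0306% lower, CTGF was at 73.4 and 49.3 TPM (1.56 ± 0.472, limma adjusted p = 0.0189). Under WT161, with 5.34% of genes called higher, it was at 87.3 and 39.4 TPM (1.53 ± 0.472, limma adjusted p = 0.0151). In each of these compounds both doses lay above all 4 DMSO libraries. Without the high-dose library the changes were 1.11 for Bromosporin, 1.28 for MC1568 and 0.97 for WT161, the last of them under 2-fold. With 1 sample left per compound, the fit cannot say which dose carried a call. Against references on the same flow cell CTGF was higher by 1.56 under Bromosporin, 1.58 under MC1568 and 1.04 under WT161, and stayed past the limma threshold (adjusted p = 0.000516, 0.0149 and 0.0155). Beside the MC1568 result, the summed fibroblast markers stood at 4054 to 4487 TPM against 2143 to 2188 TPM in the DMSO libraries. COL1A1, PDGFRB and FAP, 3 of the 8 tested, were called higher. Most of the sum in DMSO was COL3A1, at a mean of 2047 TPM. It was not called under MC1568, which does not mean that it was unchanged. Under WT161 the sum was 1897 to 1922 TPM and 0 of the 8 were called. Under Bromosporin the sum was 2380 to 2793 TPM, with COL1A1 called higher (1.08, limma adjusted p = 0.000227) and PDGFRA lower (-1.58, 0.000248). Against the same flow cell COL1A1 was at 0.73, under 2-fold, and PDGFRA kept its call at -1.65. Their part in the CTGF level was not tested. In bulk RNA, a change in the share of a cell type and a change in RNA per cell cannot be told apart.

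CYR61, the other matricellular target, was not called under any of the 18 compounds. Its largest change was under MC1568, at 338 and 298 TPM (0.87 ± 0.306, limma adjusted p = 0.0424), which is under 2-fold. It was at 308 TPM at the high and 204 TPM at the low dose of Bromosporin (0.53) and at 215 and 244 TPM under WT161 (0.40), both above all 4 DMSO libraries and both without passing the test. The MC1568 value lost its place below 0.05 with median-ratio scaling (limma adjusted p = 0.0637), without the filter on low values (0.0611), and without its high dose (0.272) or its low dose (0.0776).

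ANKRD1 went the other way under Bromosporin, where CTGF was highest. It was at 2.05 TPM at the high and 3.79 TPM at the low dose, below the 9.49 to 11.8 TPM of the DMSO libraries, a change of -1.61 ± 0.436 (limma adjusted p = 0.00602; 9.02% of all genes were called lower). Without the high-dose library the change was -1.28 and the limma adjusted p = 0.154; against the other compounds of its flow cell it was -1.70 (limma adjusted p = 9.36e-05). Trametinib had both doses low as well, at 3.42 and 4.02 TPM (-1.31 ± 0.436), which missed the threshold with limma adjusted p = 0.131 and passed it against its flow cell (-1.38, adjusted p = 0.00510). SGC-CBP30 divided by dose, with 2.15 TPM at the high and 11.8 TPM at the low dose. The 3 compounds labelled for the demethylase LSD1 gave ANKRD1 levels from 17.4 to 25.0 TPM in all 6 samples, above every DMSO library, while none passed the limma test (adjusted p = 0.258 for GSKLSD1, 0.840 for LSD-519 and 0.546 for LSD-690).

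Of the co-activators, YAP1 was called lower under WT161, at 21.8 TPM at the high and 45.4 TPM at the low dose against 76.2 to 80.9 TPM in the DMSO libraries (-1.28 ± 0.235, limma adjusted p = 0.000247). WWTR1, which codes for its paralogue TAZ, was called higher in the same samples, at 92.4 and 71.1 TPM against 37.4 to 40.1 TPM (1.05 ± 0.221, limma adjusted p = 0.000867). AMOTL2, the angiomotin-like regulator, was called lower there as well, at 15.6 and 31.4 TPM against 45.7 to 48.1 TPM (-1.05 ± 0.236, limma adjusted p = 0.00156), so 2 of the 10 genes were called higher and 2 lower under WT161, where 5.34% and 5.04% of all genes were. Without the high dose of WT161 the YAP1 change was -0.77 (limma adjusted p = 0.0290) and the WWTR1 change 0.86 (0.0347), both under 2-fold, and AMOTL2 lost its call at -0.56 (0.129). Against the other compounds on its flow cell YAP1 was at -1.31, WWTR1 at 0.99 and AMOTL2 at -0.88, of which YAP1 alone stayed past 2-fold. Under Bromosporin YAP1 passed on p at -0.66 (limma adjusted p = 0.0309, 0.0572 with median-ratio scaling, 0.0541 with Bromosporin and DMSO alone in the fit, and 0.572 without the high dose), with 37.8 and 63.5 TPM at the high and low dose.

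WWTR1 was called lower under Trametinib, at 19 and 18.5 TPM (-1.01 ± 0.221, limma adjusted p = 0.0106), where 0.611% of genes were called lower and 0.532% higher. AMOTL2 was at 87.5 and 84.9 TPM under Trametinib, above all DMSO libraries (0.86 ± 0.236, limma adjusted p = 0.0476), and YAP1 was at 77.6 and 86.0 TPM. Leaving out either Trametinib library ended both calls on p, with limma adjusted p of 0.0816 and 0.109 for WWTR1 and 0.253 and 0.237 for AMOTL2. The AMOTL2 p was also above 0.05 with another pseudocount, with scaling or with no filter (0.0565, 0.0573 and 0.0654). Against its flow cell WWTR1 was at -1.23 (limma adjusted p = 7.33e-06) and AMOTL2 at 1.18 (3.35e-05).

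The TEAD factors and the remaining regulators changed little under these compounds. TEAD4 passed on p under Bromosporin at 31.7 and 42.2 TPM (-0.61 ± 0.183, limma adjusted p = 0.0117, and 0.275 without the high dose). TEAD1 had no call, its changes lying between -0.36 and 0.33. AMOTL1 had none either, with changes between -0.47 and 0.20, nor did LATS2, with changes between -0.43 and 0.44 over the 18 compounds. The median change over the 18 compounds was 0.45 for CTGF, 0.22 for WWTR1, 0.21 for CYR61 and 0.18 for ANKRD1, and -0.16 for TEAD4 and -0.12 for AMOTL2. On the same flow cell the medians were -0.14 for CTGF, which was then above 0 in 7 of 18 compounds, and -0.03 for CYR61. They were 0.10 for WWTR1, 0.12 for ANKRD1, -0.05 for TEAD4 and 0.04 for AMOTL2. For most of these compounds that reference is the mean of the other compounds there, so such differences centre near 0 by construction. They cannot show whether the compounds shared a change from DMSO. In the medians against DMSO, a shared change and a flow-cell offset cannot be told apart.

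**Figure D2:**
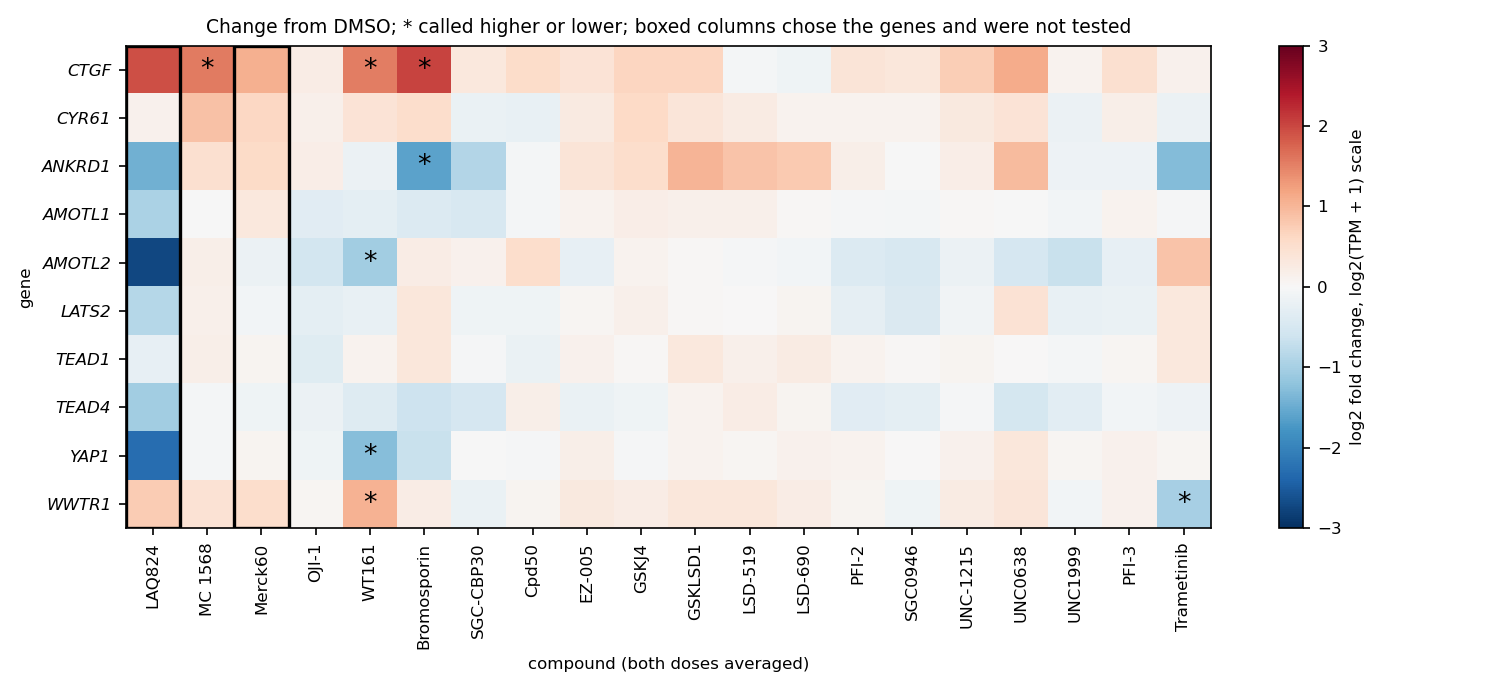
Log2 fold change from DMSO on the log2(TPM + 1) scale (colour, both doses averaged) for the 10 genes in rows and the 20 screen compounds in columns, ordered by labelled target. Stars mark the 8 calls by limma; the boxed LAQ824 and Merck60 columns chose the genes and were not tested. CTGF is higher under Bromosporin, MC1568 and WT161, while YAP1 and AMOTL2 are lower under WT161.

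UNC0638, labelled for the methyltransferase KMT1C, split by dose in several of the genes. LATS2, the kinase that inhibits YAP1 and TAZ, was at 102 TPM at the high and 25.4 TPM at the low dose, against 37 to 38.1 TPM in the DMSO libraries. CTGF was at 72.9 and 25.7 TPM, CYR61 at 318 and 169 TPM, ANKRD1 at 32.6 and 14 TPM, YAP1 at 133 and 74.2 TPM, and WWTR1 at 72.6 and 34 TPM. The high-dose sample held the highest ANKRD1, LATS2 and YAP1 of all 40 treated samples. Over both doses none of the 10 genes was called (CTGF 1.10 ± 0.472, limma adjusted p = 0.121; 0.782% of genes were called higher and 2.46% lower). Against the other compounds on its flow cell, ANKRD1 passed at 1.05 (limma adjusted p = 0.0142) and YAP1 passed on p at 0.44 (0.0489), while CTGF was at 0.58 (0.205). With the low dose left out, LATS2 was at 1.42, CTGF at 1.84 and ANKRD1 at 1.53 on the log2 scale. These changes rest on the lone high-dose library, so no test result is given for them. This library held 6849916 reads.

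Across all 20 compounds no gene of the 10 passed the paired limma test of high against low dose, nor did any of all genes tested (0%; 2874 had an unadjusted p under 0.05). TEAD4 came nearest: it was higher at the high dose under 3 of the 20 compounds, with a mean difference of -0.20 ± 0.0436 (limma adjusted p = 0.119). CTGF was higher at the high dose under 12 of 20 compounds (0.19 ± 0.150, limma adjusted p = 0.511). From low to high dose LATS2 differed by 1.97 on the log2 scale under UNC0638 and CTGF by 1.81 under Bromosporin, while ANKRD1 fell by 2.02 under SGC-CBP30.

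To ask whether HDAC-directed compounds stood apart, the means of the 3 not used for the choice (WT161, MC1568 and OJI-1) were compared with those of the 11 compounds aimed at histone methylation, on the log2(TPM + 1) scale. CTGF averaged 5.48 ± 0.763 (SD, n = 3) against 4.8 ± 0.364 (SD, n = 11), and YAP1 averaged 5.81 ± 0.686 against 6.40 ± 0.106. Neither difference passed limma over all genes: 0.68 ± 0.273 for CTGF (adjusted p = 0.238) and -0.58 ± 0.180 for YAP1 (adjusted p = 0.163). None of the 10 genes, and 0% of all genes, passed at these group sizes, while 2711 genes had an unadjusted p under 0.05. OJI-1, labelled for HDAC8, had CTGF at 24.0 and 22.4 TPM and YAP1 at 71.8 and 70.5 TPM. Its mean CTGF was the lowest of the 3, so a fit without it is no separate test of the class. Without OJI-1, 3 of the 10 genes passed (CTGF 1.12, limma adjusted p = 0.00957; YAP1 -0.76, 0.0208; WWTR1 0.56, 0.0282), beside 16.6% of all genes.

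In the comparisons that chose the genes, given here without a test, LAQ824 brought a higher CTGF and lower levels of most of the others. CTGF was at 69.8 TPM at the high and 86.5 TPM at the low dose, a change of 1.93 ± 0.472 (log2, SE) from DMSO. CYR61 stayed near DMSO at 178 and 204 TPM (0.13), and ANKRD1 was at 2.81 and 3.82 TPM (-1.44). AMOTL2 was at 5.49 and 7.09 TPM (-2.73) and YAP1 at 15.0 and 15.5 TPM (-2.28), both far below their DMSO libraries at both doses. TEAD4 was at 27.3 and 26.4 TPM (-1.04), LATS2 at 21.1 and 19.4 TPM (-0.86) and AMOTL1 at 39.2 and 36.9 TPM (-0.95), while WWTR1 was at 69.9 and 62.3 TPM (0.76). With 1 gene at least 2-fold higher and 4 at least 2-fold lower, the 10 genes are to be read beside the 13.7% and 11.6% of all genes called higher and lower under LAQ824. The summed FP-RMS markers were at 1044 to 1120 TPM, against 2658 to 2772 TPM in the DMSO libraries. WT161 (1189 to 1863 TPM), Bromosporin (1296 to 1884 TPM) and, by less, MC1568 (2507 to 2550 TPM) were also below that range.

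Under Merck60, neither YAP1 nor ANKRD1 was low. CTGF was at 60.0 TPM at the high and 29.9 TPM at the low dose (1.07 ± 0.472), CYR61 at 349 and 208 TPM (0.63), and ANKRD1 at 22.8 and 11.7 TPM (0.58). YAP1 was at 79.6 and 87.1 TPM (0.09), AMOTL2 at 38.9 and 43.6 TPM (-0.18), and WWTR1 at 60.2 and 52.2 TPM (0.52). Against the other compounds on its flow cell CTGF was at 0.54. In the fit against DMSO, 0.0122% of all genes were called higher and 0.0245% lower under Merck60.

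N1302, labelled for HDACs and measured in 1 sample, also chose the genes. CTGF was at 195 TPM against 65.1 TPM in its DMSO sample (a log2 difference of 1.57), CYR61 at 557 against 307 TPM (0.86) and ANKRD1 at 88.8 against 53.0 TPM (0.73). YAP1 was at 12.5 against 96.5 TPM (-2.85), AMOTL2 at 9.20 against 51.0 TPM (-2.35), TEAD1 at 31.0 against 98.8 TPM (-1.64) and AMOTL1 at 19.7 against 59.2 TPM (-1.54). LATS2 was at 22.5 against 43.4 TPM and TEAD4 at 21.9 against 37 TPM, while WWTR1 was at 36.7 against 37.7 TPM. With 1 sample on each side there is no replicate check, and 11.6% of all genes were at least 2-fold higher and 19.3% at least 2-fold lower. Median-ratio scaling shifted this comparison by 0.33 on the log2 scale, which brought CYR61 to 1.19 and ANKRD1 to 1.06 and turned WWTR1 from -0.04 to 0.29. The N1302 control itself stood apart from the time-course controls: CTGF was at 65.1 TPM there against 18.7 to 21.2 TPM, ANKRD1 at 53.0 against 10.9 to 15.4 TPM, and WWTR1 at 37.7 against 11.6 to 12.8 TPM.

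Entinostat, which played no part in the choice, gave the largest CTGF, CYR61 and ANKRD1 differences of these 24 comparisons, at 24 h. After 1 h CTGF was at 25.7 TPM against 21.2 TPM in the matched DMSO sample, CYR61 at 180 against 140 TPM and ANKRD1 at 18.1 against 15.4 TPM. After 6 h they were at 53.7 against 18.7, 306 against 155 and 29.3 against 10.9 TPM. After 24 h CTGF was at 824 against 18.7 TPM, CYR61 at 2425 against 145 TPM and ANKRD1 at 656 against 11 TPM, that is ratios of 44.1, 16.7 and 59.4. Across the 3 DMSO samples CTGF was at 18.7 to 21.2 TPM, CYR61 at 140 to 155 TPM and ANKRD1 at 10.9 to 15.4 TPM.

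WWTR1 followed the targets, at 26.6 against 11.6 TPM after 6 h and 66.1 against 12.8 TPM after 24 h. YAP1 did not: it was at 69.3 against 81.4 TPM after 6 h and 52.1 against 80.0 TPM after 24 h, the direction seen under LAQ824, WT161 and N1302. AMOTL2 was at 31.1 against 30.5 TPM after 6 h and 61.4 against 24.1 TPM after 24 h, the opposite direction to its level under those 3 compounds at 6 h. Its DMSO level was lower at each later time, at 44.3, 30.5 and 24.1 TPM at 1, 6 and 24 h, and the treated level at 24 h was above each of them. TEAD1 was at 136.4 against 69.8 TPM after 24 h, LATS2 at 48.6 against 31.2 TPM, AMOTL1 at 64.0 against 48.9 TPM and TEAD4 at 42.7 against 56.3 TPM. At least 2-fold higher were 0 of the 10 genes at 1 h, 3 at 6 h and 5 at 24 h, where 0.66%, 5.13% and 16.4% of all genes were, and 0 were at least 2-fold lower, where 0.581%, 0.947% and 6.06% of all genes were. The median difference of the 10 genes was 1.13 at 24 h, against 0.10 over all genes. Each point is 1 sample, so these differences have no replicate check. The other 6 h DMSO sample titled RH4, from the N1302 experiment, had CTGF at 65.1, ANKRD1 at 53.0 and WWTR1 at 37.7 TPM. With the mean of both as reference, CTGF was at 0.60 in place of 1.47 and ANKRD1 at 0.26 in place of 1.35. WWTR1 was at 0.32 in place of 1.13, and no gene reached 2-fold. The lower values of these 3 genes follow from their high levels in the added sample, so they do not check the matched differences. FP-RMS markers summed to 979 TPM at 24 h against 1915 TPM in DMSO, and their part in the result was not tested. The fibroblast markers summed to 1418 against 1365 TPM, most of it COL3A1 (1298 against 1329 TPM). Of the 8 fibroblast markers tested 3 were at least 2-fold higher and 1 lower at 24 h, namely COL1A1 at 67.9 against 7.20 TPM, COL1A2 at 2.90 against 0.514 TPM, LUM at 16.2 against 0.475 TPM as the higher ones, and FAP as the lower.

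**Figure D3:**
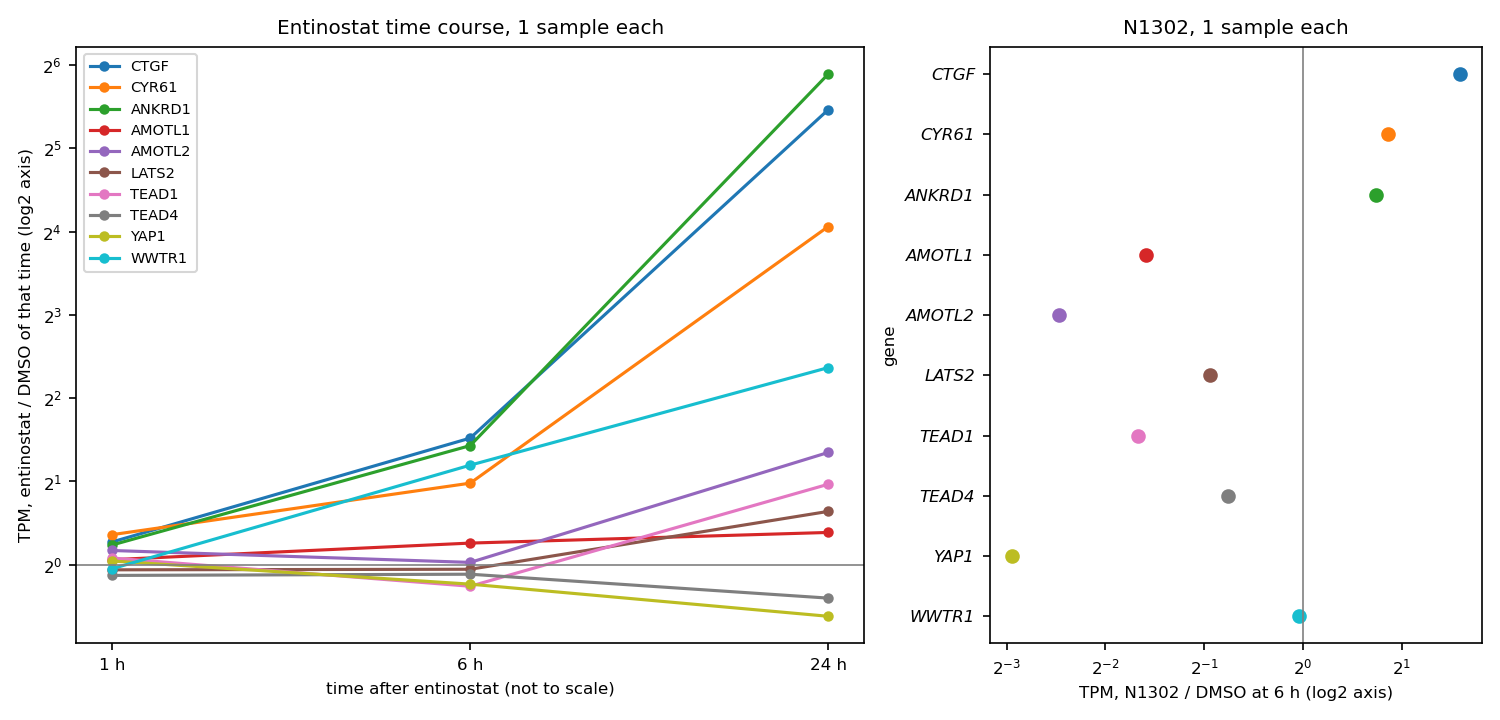
Left, ratio of TPM under entinostat to TPM in the DMSO sample of the same time (log2 axis) at 1, 6 and 24 h for the 10 genes, 1 sample per point. Right, the same ratio for N1302 at 6 h. At 24 h of entinostat CTGF, CYR61 and ANKRD1 reach ratios of 44.1, 16.7 and 59.4, and under N1302 YAP1 and AMOTL2 lie furthest below 1.

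Set side by side, CTGF was at least 2-fold higher under 6 screen compounds (Bromosporin, LAQ824, MC1568, WT161, UNC0638 and Merck60), under N1302, and under entinostat at 6 and 24 h. LAQ824, Merck60 and N1302 were chosen for this rise and add nothing to the count as evidence. Against the same flow cell CTGF was at 0.58 under UNC0638 and 0.54 under Merck60, both under 2-fold. CYR61 reached 2-fold in 1 of these 9 comparisons, entinostat at 24 h, though its difference was above 0 in all 9. ANKRD1 reached 2-fold in entinostat at 6 and 24 h and was at least 2-fold lower under LAQ824 and Bromosporin. YAP1 was lower by at least 2-fold under LAQ824, WT161 and N1302. The screen comparisons share their DMSO samples, so they are not separate pieces of evidence.

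**Figure D4:**
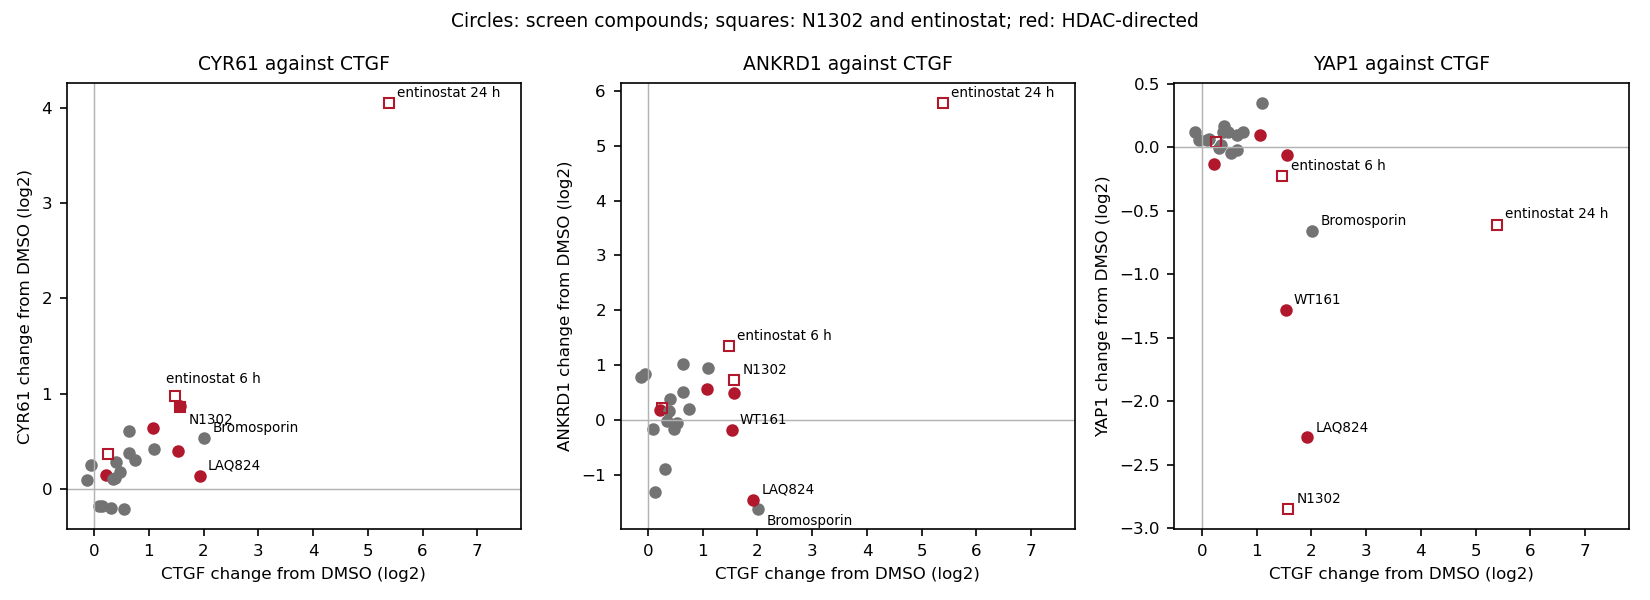
Difference from DMSO on the log2 scale for CTGF (horizontal axis) and for CYR61, ANKRD1 and YAP1 (vertical axes, 1 panel each) in the 20 screen compounds (circles), N1302 and entinostat at 1, 6 and 24 h (open squares), with HDAC-directed compounds in red. Entinostat at 24 h is at the upper right for CYR61 and ANKRD1, whereas ANKRD1 is at -1.44 under LAQ824 and -1.61 under Bromosporin, and YAP1 is at -2.28 under LAQ824 and -2.85 under N1302.

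Over the means of the 18 compounds not used in the choice (both doses, compounds sharing flow cells and depth), the Pearson correlation with CTGF was 0.69 for CYR61 and 0.51 for WWTR1, and -0.24 for ANKRD1 and -0.60 for YAP1. CYR61 and WWTR1 ranked at 579 and 2016 of 16327 genes by likeness to CTGF. With LAQ824 and Merck60 included, whose CTGF values entered the choice, the values were 0.58, 0.59, -0.37 and -0.66. Over those 20 compounds the 3 genes most like CTGF were ADCY10P1 (0.91), a pseudogene, CYP27A1 (0.91), which codes for sterol 27-hydroxylase, and C2orf48 (0.91), and over the 18 they stood at 0.90, 0.90 and 0.92.

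Of 17 other YAP/TEAD targets, 14 passed the filter, and they gave 8 calls higher (3.17% of 252 pairs) and 1 lower (0.397%) over the 18 compounds, against 1.19% and 1.04% of all genes. Of the calls higher, 7 were CCDC80, a secreted matrix-associated protein, from 1.05 under UNC1999 to 1.47 ± 0.182 under MC1568 (limma adjusted p = 1.11e-05). Against the same flow cell CCDC80 kept its call under MC1568 (1.47) alone of the 7, with the others between -0.04 and 0.81. Only MC1568 had DMSO libraries on its flow cell. The others were set against means of compounds that include one another, so their lost calls are not a like check. COL1A1, a fibroblast marker, was called higher in 4 of those 7 compounds, and its part was not tested. Against the same flow cell COL1A1 kept its call under MC1568 alone (2.08). The remaining call higher was F3, the coagulation tissue factor, at 1.16 ± 0.258 under WT161 (limma adjusted p = 0.00136; 1.14 against the flow cell). The call lower was FOXF2, a forkhead factor, at -1.02 ± 0.281 under WT161 (limma adjusted p = 0.00720; -0.90 against the flow cell, under 2-fold). IGFBP3, an insulin-like growth factor binding protein, had no call in the screen. After 24 h of entinostat 6 of the 14 were at least 2-fold higher and 0 at least 2-fold lower, with a median of 0.81, where 16.4% and 6.06% of all genes were and the median of all genes was 0.10; IGFBP3 was at 448 against 55.9 TPM and F3 at 62.6 against 11.1 TPM. Under N1302, F3 was at 34.9 against 12.8 TPM, 1 of the 14 was at least 2-fold higher and 5 at least 2-fold lower, with a median of -0.78, where 11.6% and 19.3% of all genes were and the median of all genes was -0.11.

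The 20 other Hippo kinases and upstream regulators all passed the filter and gave 4 calls higher (1.11% of 360 pairs) and 1 lower (0.278%), both below the 1.19% and 1.04% of all genes. TAOK3, a kinase upstream of the cascade, rose by 1.98 ± 0.219 under WT161 (limma adjusted p = 1.21e-06), and STK4, the MST1 kinase that activates LATS, by 1.15 ± 0.147 (4.25e-06). AJUBA, a LIM protein that restrains LATS, was lower under WT161 (-1.26 ± 0.382, limma adjusted p = 0.0132), and DCHS1, a protocadherin, was higher under MC1568 (1.09 ± 0.228, 0.00149). The fourth call higher was FAT4, another protocadherin, under Trametinib. Under N1302 the list had 9 of 20 genes at least 2-fold lower and 1 at least 2-fold higher (19.3% and 11.6% of all genes), with a median of -0.78 against -0.11 over all genes; LATS1 was at 4.75 against 32 TPM. Of the other TEAD and VGLL genes 5 of 6 passed. TEAD2 was called lower under WT161 (-1.26 ± 0.309, limma adjusted p = 0.00304), TEAD3 lower under Bromosporin (-1.04 ± 0.204, 0.000518), and VGLL4, a cofactor that competes with YAP1 for TEADs, higher under Cpd50 (1.3 ± 0.173, 1.09e-05). VGLL2 had no call. Against the same flow cell TAOK3 (1.99), AJUBA (-1.13), DCHS1 (1.07), TEAD2 (-1.23) and VGLL4 (1.25) kept their calls, while STK4 (0.93) and TEAD3 (-0.95) were under 2-fold. After 24 h of entinostat TEAD2 was at 44.3 against 137 TPM.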

How the data were processed

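Poly-A RNA-seq of 52 samples of cultured FP-RMS cells was analysed from gene tables. The authors mapped reads with STAR (build hg19) and quantified genes by RSEM on the UCSC reference. The deposited values are TPM, transcript abundance corrected for length and scaled to a fixed total per sample. STAR and edgeR are also named in the submitters' processing notes. TPM keeps no depth, but the values were whole multiples of a step in all 23645 genes above 0 (tolerance 0.001 reads), which gave 5616180 to 41415071 reads per library; counting intervals from them cover counting error only. The 10 genes and all gene lists were chosen with earlier results of these data known.

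Values were tested as log2(TPM + 1), which understates changes of low genes, in genes with at least 1 TPM in at least 2 samples. One fit with limma (3.58.1, R 4.3.3) held all 44 screen samples with 1 coefficient per compound. The study's methods average replicate experiments against 4 DMSO samples. Here the 2 libraries of each DMSO concentration were averaged, leaving 2 DMSO samples. Apart from differences between flow cells, these libraries differed by no more than counting noise (variance ratio 1.02). The flow-cell differences themselves had a variance of 4.08 times counting noise over 10378 genes. Averaging leaves them out of the spread, although most compounds were on flow cells without a DMSO library. Adjusted p-values are Benjamini-Hochberg over all genes of a comparison. In simulated data 187 of 200 genes changed by 2 on the log2 scale were recovered against DMSO, with 4 false calls. Samples were grouped by their labels. Named genes were the 10 members, up to 4 genes of each other list called under most of the 18 compounds, and the 3 genes most like CTGF. LATS1 and FAT4 were named after their values were seen. Alternatives changed the pseudocount, scaling, filter, controls, covariates and flow-cell reference, left out each sample, and, added after seeing the data, used limma-voom on the whole reads, the flow-cell reference for genes of the other lists, and the likeness to CTGF over 18 compounds. Same-numbered DMSO libraries correlated at 0.072 after removing group means. That value covers all genes tested, those with few reads included, and does not show that flow-cell differences were small.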

Additional observations from a re-analysis of the deposited data

Results flagged for a closer look

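TEAD1 under entinostat was picked out because its difference from DMSO changed direction between times, with 1 sample at each time: 0.0797 on the log2 scale at 1 h, -0.254 at 6 h and 0.956 at 24 h. Each value exceeds its counting interval, and the difference between the times was not tested. No group had the 4 to 10 samples needed to look for a single outlying sample.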

How the results depend on the processing

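The counts of members called higher and lower over the 18 compounds (4 and 4) were between 4 and 6 higher and between 4 and 5 lower under the other pseudocount, scaling, filters, controls, covariate, flow-cell reference and limma-voom. With 1 library left out they ranged from 2 to 7 higher and from 2 to 6 lower; without the high dose of WT161 they were 2 and 2, the 7 came without the low dose of UNC0638, and the 6 without the low dose of SGC-CBP30. The ends of these ranges came from fits with a lone sample of the compound named, and no share of all genes is given beside them. Between the HDAC-directed and methylation compounds 0 members passed, and 0 to 3 with 1 compound left out. The tests of dose and of DMSO concentration gave 0 members in every alternative, the replicate block included (0); the DMSO numbers, which also mark flow cells, are no stated pairing. The count of members at least 2-fold higher under N1302 was 3 in place of 1 with median-ratio scaling and with both 6 h DMSO samples titled RH4; under entinostat at 6 h it was 0 in place of 3 with the latter. Under Merck60 it was 0 in place of 1 against the same flow cell, and 0 to 3 with 1 dose left out. Values against both DMSO samples titled RH4 moved because those samples differ, and why the others moved was not tested. Low read numbers limit ANKRD1 most, with 16 reads in its lowest sample.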
